A study of Homo sapiens with 118 samples.

Results

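The SLC22 family members examined here are 9 genes for membrane carriers of organic anions, cations and zwitterions: SLC22A3, SLC22A4, SLC22A5, SLC22A7, SLC22A9, SLC22A10, SLC22A15, SLC22A18 and SLC22A25. They were found as the rows of the count table that carry these gene symbols, and all probes were kept. This gave 11 features, where a feature is a row for a single detector probe, named by gene symbol and probe number. SLC22A5 and SLC22A7 had 2 probes each and the other genes 1. The whole table held 22068 features with a value in every library, for 19470 symbols.

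The cells were HepaRG, an established human hepatoma line that the labels describe as liver progenitor cells and that was thawed as differentiated cells and cultured for 7 days before exposure. Cells were exposed for 72 h, with daily renewal, to 1 of 8 histone deacetylase inhibitors, compounds that raise protein acetylation, of histones among others, by inhibiting the enzymes that take acetyl groups off. Gene expression was measured by TempO-Seq, a targeted assay: probe pairs bind neighbouring stretches of an RNA in the cell lysate, are ligated, amplified and counted by sequencing. There were 5 concentrations per chemical, C1 (lowest) to C5 (highest), and 3 HepaRG batches, which gave 118 libraries in 40 groups.

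From C1 to C5 the labels give apicidin at 0.0417 to 0.86 µM, mocetinostat at 0.177 to 3.9 µM, panobinostat at 0.00147 to 0.084 µM and scriptaid at 4.94 to 94.5 µM. Tacedinaline was given at 1.14 to 44 µM, trichostatin A at 0.0188 to 1.52 µM and vorinostat at 0.405 to 23.5 µM. For valproic acid the dose label runs from 100.478 to 3038, but its unit is open, because the treatment protocol names smaller numbers in the same unit. No concentration was matched between chemicals, so values of different chemicals stand side by side here without a comparison of strength. Solvent-treated cells were not analysed here, and each chemical was compared with its own C1, so an effect present in full at the lowest concentration does not show here. In 38 groups there were 3 libraries, 1 per HepaRG batch, while panobinostat C3 and trichostatin A C4 had 2, without batch 3. Chemicals lay on 2 plates, with 5 chemicals on plate H and 3 (scriptaid, tacedinaline and vorinostat) on plate E.

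Transporters of the SLC22 family sit in the plasma membrane and move small charged molecules, often coupled to or in exchange for other ions or solutes. In hepatocytes, SLC22A7 (OAT2) and SLC22A9 (OAT7) lie in the membrane facing the blood and carry organic anions, and SLC22A10 and SLC22A25 are related members with expression mostly in liver. SLC22A3 (OCT3) is a broadly expressed carrier of organic cations and monoamines. SLC22A5 (OCTN2) takes up carnitine together with sodium, SLC22A4 (OCTN1) carries ergothioneine, SLC22A15 is a zwitterion carrier, and SLC22A18 is a distant member in an imprinted gene cluster.

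Promoters are shown for the anion transporters SLC22A7 and SLC22A10, which fell together at C5, and for SLC22A5, which rose. Each sequence is the 250 bases before the gene start in RefSeq (GRCh38.p14), 5′ to 3′ on the strand of the gene, the plus strand in all of them. They lie at chr6:43298010-43298259 (SLC22A7), chr11:63289653-63289902 (SLC22A10) and chr5:132369460-132369709 (SLC22A5). Capitals mark matches, on either strand, to 5 short motifs. CAAAGTCCA is a form of the site of HNF4, a liver transcription factor. GTTAAT is an arm of the site of HNF1, another liver factor. GGGCGG is the core of the GC box bound by SP1 and related factors. The last pair are common elements of core promoters, TATAAA (the TATA box) and the box CCAAT.
SLC22A7 promoter: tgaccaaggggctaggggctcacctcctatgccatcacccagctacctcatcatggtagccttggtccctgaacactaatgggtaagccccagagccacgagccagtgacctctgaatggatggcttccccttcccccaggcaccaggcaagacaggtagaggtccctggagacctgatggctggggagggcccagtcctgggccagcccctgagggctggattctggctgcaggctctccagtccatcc
SLC22A10 promoter: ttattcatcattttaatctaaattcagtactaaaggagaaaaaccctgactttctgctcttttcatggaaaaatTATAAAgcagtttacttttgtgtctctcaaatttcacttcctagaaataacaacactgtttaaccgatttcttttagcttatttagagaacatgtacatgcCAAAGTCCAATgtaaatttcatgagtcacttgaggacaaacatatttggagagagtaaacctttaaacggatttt
SLC22A5 promoter: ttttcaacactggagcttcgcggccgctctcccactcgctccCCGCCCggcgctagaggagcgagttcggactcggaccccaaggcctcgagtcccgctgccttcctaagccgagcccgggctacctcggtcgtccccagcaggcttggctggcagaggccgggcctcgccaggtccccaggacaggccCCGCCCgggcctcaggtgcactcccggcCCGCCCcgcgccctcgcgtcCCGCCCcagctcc

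None of the 5 motifs matched in the SLC22A7 window, which says only that these letters are not in it. The SLC22A10 window held CAAAGTCCA, TATAAA and CCAAT, of which the first and last overlap. Among all 35116 RefSeq promoter windows of that length, 0.325% held CAAAGTCCA, 10.7% TATAAA, 32.0% CCAAT, 42.6% GGGCGG and 6.23% GTTAAT. The SLC22A5 window held GGGCGG 4 times, each on the opposite strand. Base composition differed widely: G and C made up 74% of the SLC22A5 window, 62% of the SLC22A7 window and 30.8% of the SLC22A10 window, against a median of 58% over all promoters. Of the other members, SLC22A4 (76%) and SLC22A15 (71.2%) also had G and C rich windows with GGGCGG, and SLC22A25 (51.2%) held CCAAT. These matches are descriptions of sequence and not binding sites.

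Total counts per library ranged from 1061359 to 5250260, with a median of 3702007. Levels are given as CPM, the counts scaled to a common library size after TMM normalisation, and were not compared between genes, since probes differ in efficiency. A change was called at an adjusted p under 0.05 (edgeR quasi-likelihood test, Benjamini-Hochberg over all features of the chemical) and a fold change of at least 1.5. The C1 library of trichostatin A in batch 3 stood apart. The summed level of 13 hepatocyte marker features, among them ALB and CYP3A4, was 18083 CPM in it, against 73743 and 76859 in the other C1 libraries of that chemical and between 51690 and 103912 in the C1 libraries of the other chemicals. For trichostatin A, the count of calls at C5 and the C5 changes of SLC22A7 are therefore given with and without that library. Changes of the other members are given with it. In bulk lysates, fewer cells of a type and less RNA per cell cannot be told apart.

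At C5, the liver-type anion transporters SLC22A7 and SLC22A9 and the cation transporter SLC22A3 fell in 7 of 8 chemicals, all except trichostatin A, and SLC22A10 fell in the 6 of those 7 in which it could be tested. SLC22A5 rose in apicidin, tacedinaline and vorinostat. SLC22A18 fell in 3 chemicals and SLC22A4 was called in none. Over the 8 chemicals, 72 of 88 pairs of a member feature and a chemical passed the filter on low counts, and 37 fell and 6 rose, against a background of 13.4% falling and 11.6% rising over all features tested. A feature can pass that filter through the group in which it is high, so these counts describe the members that passed and not all of them. Across the batches, 0 of 72 tests of a difference in slope between HepaRG batches had an unadjusted p under 0.05 (lowest adjusted p 0.594). Over all features, those with an unadjusted p under 0.05 in this test ran from 59 of 12790 (scriptaid) to 1280 of 12993 (trichostatin A). In each chemical 0 features had an adjusted p under 0.05, so this result is not particular to the members.

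Counted by feature, so that SLC22A5 and SLC22A7 enter with 2 probes each, 6 fell and 2 rose of 9 tested with apicidin (5 genes and 1 gene), where 15.0% of all features fell and 13.8% rose. With tacedinaline the same numbers were 6, 2 and 9, beside 20.1% and 18.7%. With vorinostat 5 features fell and 2 rose of 8 tested, from 4 genes and 1 gene (background 24.9% and 22.7%). Member features fell but did not rise with scriptaid (6 of 9 tested, background 17.0% falling and 12.8% rising), panobinostat (5 of 10, background 9.46% and 6.77%), valproic acid (5 of 9, background 6.22% and 4.84%) and mocetinostat (4 of 8, background 15.7% and 14.8%). With trichostatin A 0 of 10 were called in either direction, 0 had an unadjusted p under 0.05 in edgeR, and 0.0154% of all features fell and 0% rose. The median change of all features tested lay between -0.0018 and 0.084 on the log2 scale in every chemical.

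**Figure D1:**
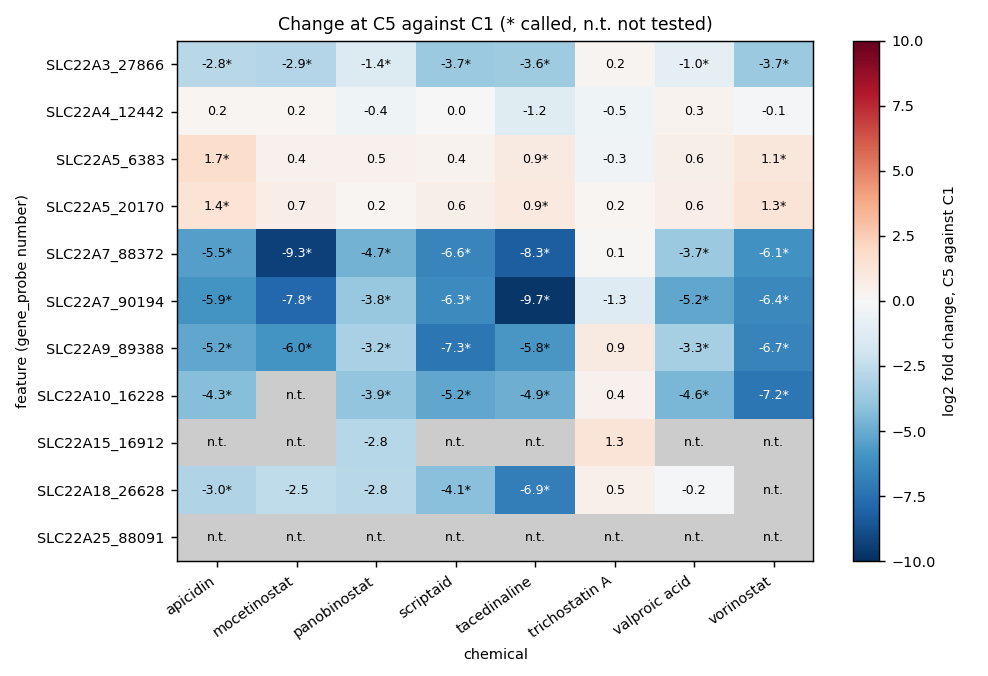
Log2 fold change at C5 against C1 for the 11 member features (rows) in the 8 chemicals (columns). Blue is lower and red higher at C5, an asterisk marks a called change, and grey cells (n.t.) did not pass the filter on low counts. The rows of SLC22A7, SLC22A9, SLC22A10 and SLC22A3 are blue and called wherever tested outside the trichostatin A column.

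SLC22A7, which carries organic anions into hepatocytes, fell in 7 of 8 chemicals with both probes. With apicidin, probe SLC22A7_88372 was at 49.7, 44.8 and 26.7 CPM at C1 and at 0.261, 1.47 and 0.746 CPM at C5 in batches 1, 2 and 3. With panobinostat it was at 39.0, 26.1 and 19.8 CPM at C1 and at 0, 1.45 and 1.64 CPM at C5. With valproic acid it was at 33.6, 39.1 and 24.5 CPM at C1 and at 3.16, 1.42 and 2.54 CPM at C5. In all 3 chemicals every C1 library lay above every C5 library. The fitted level was 46.4-fold lower with apicidin (log2 change -5.54, SE 0.60, adjusted p 7.29e-07), 26.5-fold lower with panobinostat (-4.73, SE 0.53, adjusted p 1.43e-06) and 13.3-fold lower with valproic acid (-3.74, SE 0.49, adjusted p 1.61e-05).

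With mocetinostat, which had the highest C1 level of this probe, the values were 100.4, 75.7 and 75.4 CPM at C1 and 0.258, 0 and 0 CPM at C5. With tacedinaline they were 80.0, 58.6 and 37.3 CPM against 0, 0.342 and 0 CPM. With scriptaid they were 37.1, 25.9 and 21.2 CPM against 0, 0.568 and 0 CPM. Very few reads were left at C5 in these chemicals: 1 count over 3 libraries with mocetinostat, 1 with tacedinaline and 2 with scriptaid. The ratio of scaled counts, with its 95% counting interval, was 925 (166 to 36570) with mocetinostat, 381 (68.0 to 15079) with tacedinaline and 111 (30.5 to 922) with scriptaid. With vorinostat the C1 values were 35.7, 33.5 and 27.0 CPM and the C5 values 0, 0.471 and 0.589 CPM, a ratio of 79.8 (21.9 to 662). All 4 falls were called (adjusted p 1.05e-07, 6.21e-14, 0.000206 and 3.16e-08, in the order in which the ratios are given).

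The second probe of the gene, SLC22A7_90194, gave lower levels at C1, between 9.01 and 70.8 CPM in the 21 C1 libraries outside trichostatin A (median 20.9), and at most 2.24 CPM in the 21 C5 libraries of those chemicals, of which 10 had 0 counts. It fell in the same 7 chemicals, with adjusted p between 6.22e-10 and 0.000225. With tacedinaline its C1 values were 61.5, 30.8 and 25.1 CPM and all 3 C5 libraries had 0 counts, so its level was at least 79.7-fold lower, a bound from 3 counts over the group. Both probes measure a single gene and are not independent.

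SLC22A9, which carries sulfated steroids and other anions, was at 84.3, 113 and 88.2 CPM at C1 and at 2.45, 0.471 and 0 CPM at C5 with vorinostat. With scriptaid it was at 75.5, 87.4 and 95.4 CPM at C1 and at 0.420, 0.568 and 0.477 CPM at C5. With valproic acid it was at 66.7, 74.5 and 77.7 CPM at C1 and at 6.75, 8.29 and 6.49 CPM at C5. The C1 and C5 libraries did not overlap in any of the 3, nor over the 7 chemicals pooled, where the lowest C1 library was at 15.6 CPM and the highest C5 library at 10.6 CPM. The fall was 104-fold with vorinostat (log2 change -6.70, SE 0.48, adjusted p 1.56e-13), 153-fold with scriptaid (-7.25, SE 0.86, adjusted p 6.68e-06) and 10.0-fold with valproic acid (-3.33, SE 0.25, adjusted p 6.17e-09). In apicidin, mocetinostat, panobinostat and tacedinaline it was 35.8-fold, 62.6-fold, 9.28-fold and 57.0-fold lower, with adjusted p between 4.56e-10 and 8.30e-06. Only 4 counts over 3 libraries were left at C5 in each of vorinostat, scriptaid, mocetinostat and tacedinaline, so the size of the fall there is imprecise.

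SLC22A10, a liver member close to SLC22A9 in the genome, had fewer counts, between 1 and 71 in the 24 C1 libraries. With panobinostat it was at 13.4, 14.5 and 13.5 CPM at C1 and at 0.280, 0.242 and 2.19 CPM at C5, 15.2-fold lower (log2 change -3.93, SE 0.59, adjusted p 5.85e-05). With valproic acid it was at 13.0, 12.5 and 5.10 CPM at C1 and at 0.211, 0.711 and 0.282 CPM at C5, 23.6-fold lower (-4.56, SE 0.74, adjusted p 0.000218). With vorinostat the C1 libraries held 10, 30 and 33 counts and the C5 libraries 0, at least 13.7-fold lower by the bound of 3 counts (adjusted p 0.000104). No C5 library of these chemicals reached its C1 libraries. The fall was also called with apicidin (19.1-fold, adjusted p 0.0045), scriptaid (adjusted p 0.00679) and tacedinaline (adjusted p 0.00335). With apicidin the call was lost without batch 3 (adjusted p 0.0654), and with scriptaid without batch 1 (0.05001) or without batch 2 (0.0926). With mocetinostat the feature did not pass the filter, with 23, 23 and 4 counts at C1 and 2, 0 and 0 at C5.

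SLC22A3, the organic cation carrier, fell by less and stayed well measured, with at least 11 counts in each of the 118 libraries. With scriptaid it was at 223, 232 and 288 CPM at C1 and at 17.2, 15.0 and 21.5 CPM at C5, 13.2-fold lower (log2 change -3.72, SE 0.51, adjusted p 2.92e-05). With vorinostat it was at 241, 292 and 199.8 CPM against 8.98, 26.4 and 13.6 CPM, 13.1-fold lower (-3.71, SE 0.29, adjusted p 1.19e-12). With valproic acid it was at 285, 297 and 388 CPM against 158, 173 and 145 CPM, 2.02-fold lower (-1.02, SE 0.17, adjusted p 0.000218). Every C5 library was below every C1 library in these chemicals. The falls in panobinostat (2.63-fold), apicidin (6.90-fold), mocetinostat (7.46-fold) and tacedinaline (11.8-fold) had adjusted p between 1.53e-16 and 2.32e-05. With scriptaid at C4, batch 3 was at 278 CPM while batches 1 and 2 were at 62.7 and 48.0 CPM, and that comparison was not called. The same library was also the highest of its group for SLC22A5_20170 (175.7 CPM, against 79.1 and 39.6 CPM in batches 1 and 2). No fit left out that library alone.

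**Figure D2:**
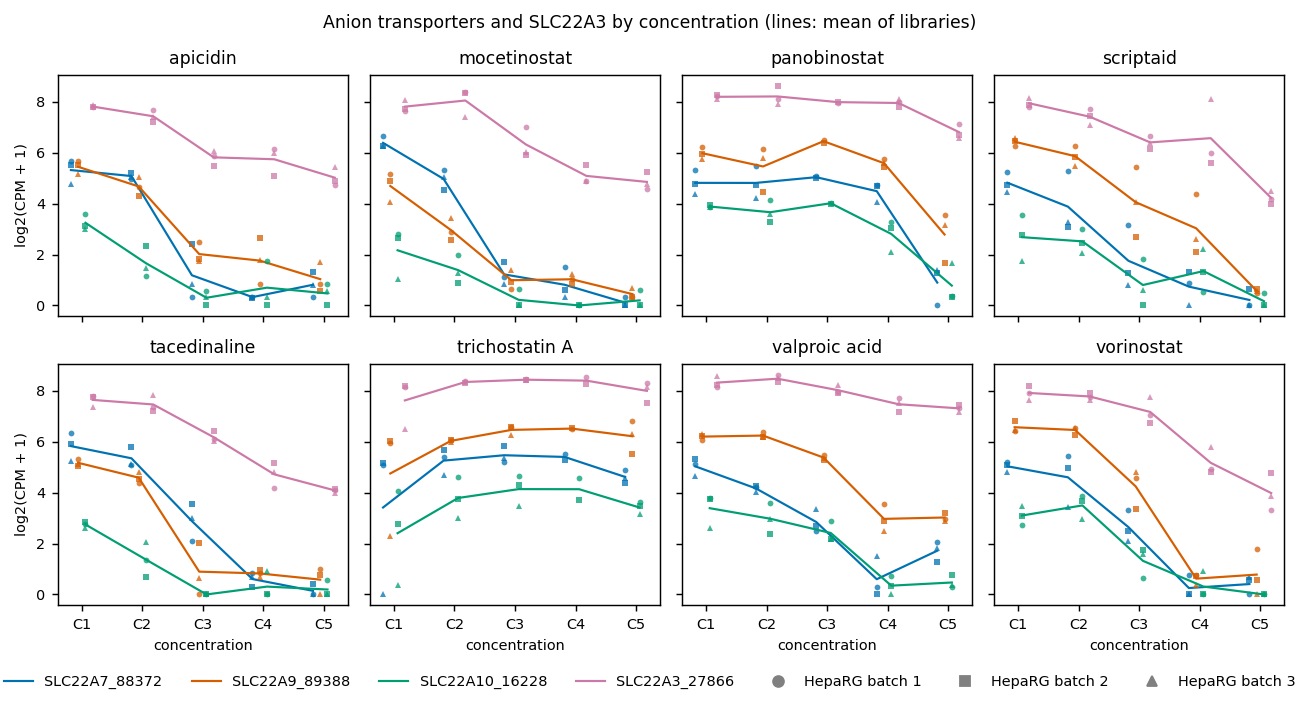
Levels of SLC22A7_88372, SLC22A9_89388, SLC22A10_16228 and SLC22A3_27866 as log2(CPM + 1) (vertical axis) at C1 to C5 (horizontal axis) in 8 panels, 1 per chemical. Each symbol is a library, with its shape giving the HepaRG batch, and lines join the means. All 4 lines end below their C1 value in the panels other than trichostatin A, by least for SLC22A3 with valproic acid and panobinostat. In the trichostatin A panel the C1 library of batch 3 lies below the others.

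The carnitine transporter SLC22A5 went the other way. With apicidin, probe SLC22A5_6383 was at 30.0, 25.1 and 34.3 CPM at C1 and at 87.3, 110.5 and 99.2 CPM at C5, 3.35-fold higher (log2 change 1.75, SE 0.22, adjusted p 4.57e-06). Probe SLC22A5_20170 was at 57.8, 46.0 and 72.1 CPM at C1 and at 134, 146 and 177 CPM at C5, 2.62-fold higher (1.39, SE 0.23, adjusted p 0.000117). The C1 and C5 libraries did not overlap with either probe. With vorinostat, SLC22A5_6383 rose from 34.1, 35.8 and 26.7 CPM to 61.2, 75.8 and 54.8 CPM (2.15-fold, adjusted p 0.000261). With vorinostat, SLC22A5_20170 rose from 55.9, 40.3 and 48.8 CPM to 127, 112 and 84.9 CPM (2.43-fold, adjusted p 5.23e-06). With tacedinaline the rises were 1.86-fold (adjusted p 0.00193) and 1.92-fold (adjusted p 0.000249), and the first was lost without batch 2 (log2 change 0.65, adjusted p 0.115).

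In the other chemicals the SLC22A5 probes were not called at C5 in the fit described. With valproic acid, SLC22A5_20170 was at 46.8, 47.0 and 57.3 CPM at C1 and at 52.5, 85.1 and 97.3 CPM at C5 (1.56-fold higher, adjusted p 0.0599). Batch 1 at C5 lay among the C1 values. That probe was called at C4 with valproic acid (log2 change 0.80, adjusted p 0.0184) and by the trend over all 5 concentrations (fitted change from C1 to C5 0.80, adjusted p 0.00565). With mocetinostat, SLC22A5_6383 was called at C3 (0.82, adjusted p 0.0461) but not at C5, where it was 1.35-fold higher (adjusted p 0.215). Its C1 libraries were at 28.2, 35.1 and 36.9 CPM and its C5 libraries at 40.9, 42.1 and 44.8 CPM. SLC22A5_20170 overlapped between C1 and C5 there (1.57-fold higher, adjusted p 0.089). With scriptaid and panobinostat the C5 log2 changes of the probes lay between 0.18 and 0.61, with adjusted p from 0.223 to 0.686.

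**Figure D3:**
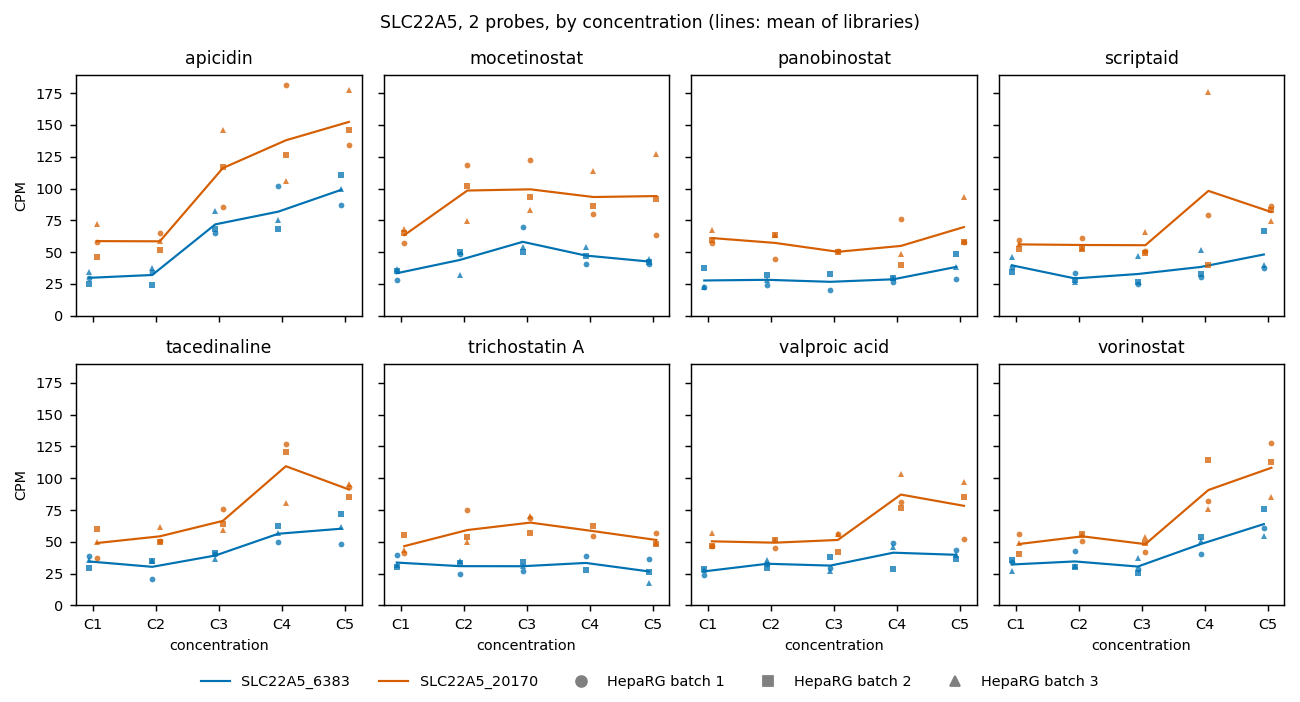
CPM of the SLC22A5 probes (vertical axis, from 0) at C1 to C5 (horizontal axis) in 8 panels, 1 per chemical. Symbols are libraries, with shapes for HepaRG batches, and lines join group means. The apicidin, tacedinaline and vorinostat panels end above their C1 libraries, while the trichostatin A panel stays between 17.6 and 74.8 CPM.

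SLC22A4, the ergothioneine carrier that lies next to SLC22A5, was tested in all 8 chemicals and called at none of the concentrations. Its counts ran from 2 to 41 in the C1 libraries and from 1 to 34 in the C5 libraries of the chemicals other than trichostatin A. Its C5 log2 changes lay between -1.21 (tacedinaline, SE 0.82) and 0.33 (valproic acid, SE 0.55), with adjusted p from 0.243 to 0.993. With tacedinaline 12, 5 and 16 counts at C1 stood against 10, 2 and 1 at C5, so the groups overlapped.

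SLC22A18 had at most 33 counts in a library. With tacedinaline it had 4, 15 and 33 counts at C1 and 0 in all 3 C5 libraries, at least 14.8-fold lower by the bound of 3 counts (adjusted p 0.00082). With scriptaid it had 11, 12 and 10 counts at C1 and 1, 0 and 0 at C5, a ratio of 24.4 with a 95% counting interval from 4.08 to 991 (adjusted p 0.0118). With apicidin it had 8, 29 and 8 counts at C1 and 3, 1 and 1 at C5 (7.88-fold lower, adjusted p 0.0298). These were the 3 chemicals in which its fall was called. The call was lost with apicidin without batch 3 (adjusted p 0.0986), and with scriptaid without batch 1 (0.0599) or batch 2 (0.151). With panobinostat it was 6.85-fold lower and not called (adjusted p 0.0633), although it was called with the HepaRG batch as a replicate block (log2 change -3.08, adjusted p 0.0389). With valproic acid 13, 5 and 11 counts at C1 stood against 4, 14 and 7 at C5, so those groups overlapped. With mocetinostat 12, 15 and 10 counts at C1 stood against 0, 0 and 5 at C5, and the change was not called. With vorinostat the feature did not pass the filter, with 10, 5 and 7 counts at C1 and 0, 5 and 0 at C5.

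The zwitterion carrier SLC22A15 passed the filter in panobinostat and trichostatin A only and was not called there (adjusted p 0.264 and 0.784). In panobinostat all 19 counts at C1 came from batch 2, with 0 in batches 1 and 3. SLC22A25, from the same family branch as SLC22A9 and SLC22A10, passed the filter in no chemical, with 0 counts in 75 of 118 libraries and at most 11. With vorinostat it had 0, 6 and 7 counts at C1 and 0 in the 3 C5 libraries, at least 2.44-fold lower by the bound of 3 counts, without a test. With mocetinostat it had 7, 6 and 0 counts at C1 and 0 in the 3 C5 libraries, at least 4.03-fold lower by the same bound.

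**Figure D4:**
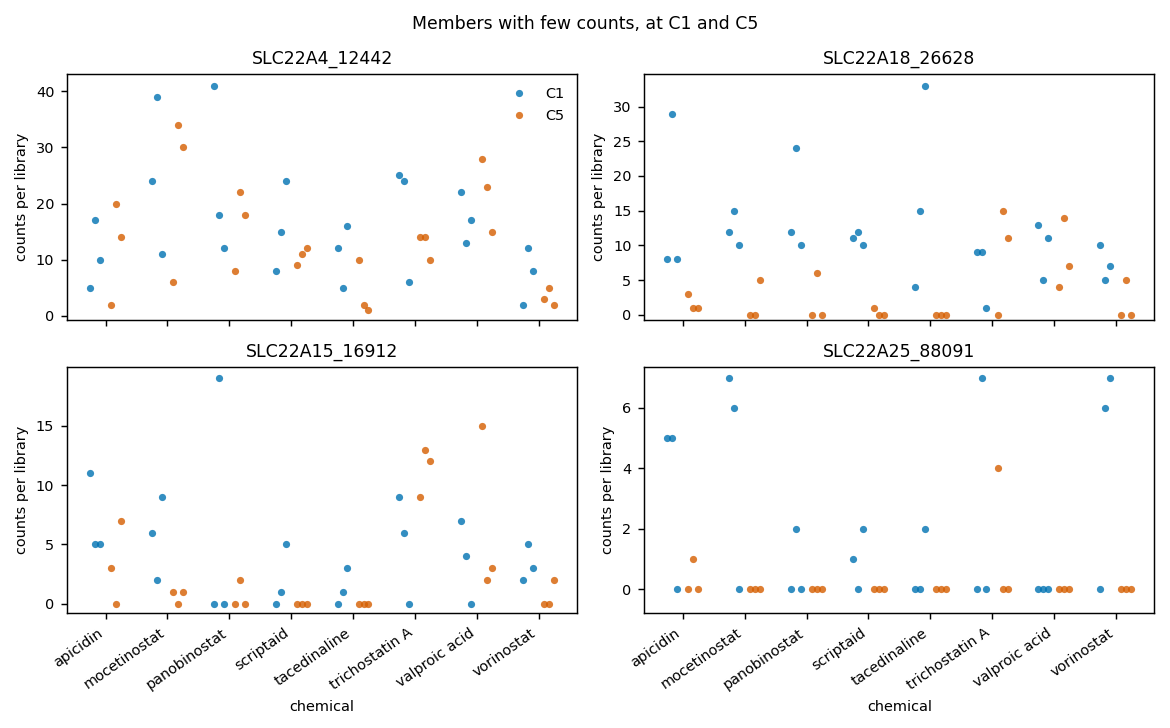
Raw counts per library (vertical axis) of the 4 members with few counts at C1 (blue) and C5 (orange) in each chemical (horizontal axis), with batches 1, 2 and 3 from left to right. SLC22A4 overlaps between C1 and C5 in each chemical, and SLC22A25 has at most 7 counts in any library shown.

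Most falls were first called at C3 or C4. At C2, 0 of 72 member tests were called in either direction (background 0.0206% falling and 0.0659% rising). At C3, 20 fell and 3 rose (background 3.16% and 2.82%). At C4, 28 fell and 7 rose (background 8.14% and 7.85%). By the trend over the 5 concentrations, 33 fell and 7 rose (background 12.7% in each direction). SLC22A7_90194 was called falling at C3 in 6 chemicals, SLC22A7_88372 in 5, SLC22A9 in 4, SLC22A3 in 3 and SLC22A10 in 2.

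SLC22A7_88372 shows the course with valproic acid: the log2 change from C1 was -2.33 at C3, -5.66 at C4 and -3.74 at C5, and all were called (adjusted p 0.00634, 8.40e-07 and 1.61e-05). C4 and C5 of valproic acid are close in dose, 2713 against 3038 on the label scale. With vorinostat the same probe was at 9.05, 4.69 and 3.30 CPM at C3 (log2 change -2.44, adjusted p 0.00124). With mocetinostat it was already at 1.17, 2.23 and 0.814 CPM at C3 (-5.80, adjusted p 2.58e-06). With panobinostat no member was called before C5, and with scriptaid SLC22A3, SLC22A10 and SLC22A18 were first called at C5, as was SLC22A18 with apicidin. With panobinostat at C4 SLC22A7_88372 was at 25.8, 24.7 and 15.6 CPM, within the range of its C1 libraries in 2 of 3 batches. By the trend with panobinostat, SLC22A7_88372 (adjusted p 0.0524) and SLC22A9 (adjusted p 0.0669) were not called, while SLC22A7_90194, SLC22A10 and SLC22A3 were (adjusted p 0.00788, 0.00921 and 0.00403).

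With trichostatin A, SLC22A7_88372 was at 33.1, 34.8 and 0 CPM at C1 and at 28.6, 19.97 and 23.0 CPM at C5. SLC22A7_90194 was at 34.0, 21.9 and 0.597 CPM at C1 and at 9.34, 1.05 and 12.6 CPM at C5. SLC22A9 was at 60.3, 65.0 and 3.88 CPM at C1 and at 111, 44.9 and 79.3 CPM at C5. In each of them the C1 value of batch 3, the library that stands apart, was the lowest of that group by far. The C5 log2 changes over the 10 features tested lay between -1.31 and 1.28, with adjusted p from 0.604 to 0.985. Without that library 0 of 10 were called, and SLC22A7_90194 had a log2 change of -1.88 (adjusted p 0.0623) and SLC22A7_88372 of -0.50 (adjusted p 0.501). The share of all features called in that fit is not given here, so its 0 of 10 is not read as a trait of the members. Without batch 3 at all concentrations SLC22A7_90194 was called (-2.41, adjusted p 0.0223). Its C5 values in batches 1 and 2 were below its C1 values in the same batches.

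Set out by structural class, without matched doses, the hydroxamic acids vorinostat, scriptaid and panobinostat had C5 log2 changes of SLC22A9 of -6.70, -7.25 and -3.21. The hydroxamic acid trichostatin A had 0.88, a value that includes its C1 library of batch 3 (3.88 CPM, against 60.3 and 65.0 CPM in batches 1 and 2). The benzamides mocetinostat and tacedinaline had -5.97 and -5.83, the cyclic peptide apicidin -5.16 and the fatty acid valproic acid -3.33. No member was called in opposite directions in any pair of chemicals.

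Levels at C1 already varied between chemicals. The mean of SLC22A7_88372 at C1 ran from 28.1 CPM (scriptaid, SD 8.18) to 83.8 CPM (mocetinostat, SD 14.4, n = 3 each) outside trichostatin A. With trichostatin A it was 22.7 CPM (SD 19.6), which includes the batch 3 library at 0, while batches 1 and 2 were at 33.1 and 34.8 CPM. The mean of SLC22A9 at C1 ran in another order, from 26.2 CPM with mocetinostat (SD 9.67) to 95.0 CPM with vorinostat (SD 15.3). The lowest level of SLC22A3 was with tacedinaline (202 CPM, SD 33.2) and the highest with valproic acid (323 CPM, SD 56.1). C1 is a different concentration of each chemical, so these values were not tested against each other.

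Of the other measured genes of the family, SLC22A23, an orphan member, was not called at C5 with either probe (log2 changes -0.19 to 0.59), nor was SLC22A14 in 6 chemicals (0.19 to 1.92).

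Genes that make and use carnitine, the substrate of SLC22A5, fell or were not called at C5. Of 79 tests of this list, 23 fell and 0 rose at C5, where 13.4% of all features fell and 11.6% rose over the 8 chemicals, with a median log2 change of -0.48. BBOX1, the last enzyme of carnitine synthesis, fell in 5 of 8 chemicals (C5 log2 changes from -5.57 to -0.07). SLC25A20, which exchanges carnitine and acylcarnitine across the inner mitochondrial membrane, fell in 4 (-1.59 to 0.04), CPT1B, a muscle-type carnitine palmitoyltransferase, in 3 (-1.72 to 0.24), and TMLHE, the first enzyme of carnitine synthesis, in 1 (-1.85 to 0.52). CPT1A, the liver form, was called in 0 of 8 (-0.42 to 0.51).

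Of 76 tests of genes of urate handling, 20 fell and 3 rose (background 13.4% and 11.6%), with a median of -0.45. The urate carrier SLC2A9 and xanthine dehydrogenase XDH fell in 4 of 8 chemicals each (-6.98 to 0.72 and -7.49 to -0.27), and SLC17A1, a phosphate and urate carrier, in 1 of 3 tested. PDZK1, an adaptor that binds the tails of membrane transporters, fell in 7 of 8 chemicals, from -6.43 to -1.01 in those 7. The list of PDZ adaptors and cation efflux had 21 of 31 tests falling and 0 rising (background 13.4% and 11.6%, median -1.61). All these falls came from PDZK1 and SLC47A1, and those of PDZK1 are also counted in the urate list. SLC47A1 (MATE1), which moves organic cations into bile, fell in 7 of 8 chemicals with both probes (-3.57 to -0.44 and -2.62 to -0.94). SLC9A3R1 (NHERF1) was not called in 7 chemicals (-1.79 to 0.54).

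Transcription factors of liver cells fell in 65 of 115 tests and rose in 0 (background 13.4% and 11.6%), with a median of -1.42. NR1I3 (CAR), a xenobiotic receptor, fell in 7 of 8 chemicals (probe NR1I3_90298, -9.65 to -1.33 outside trichostatin A) and in 6 of 8 with probe NR1I3_87852. NR1I2 (PXR) fell in 6 of 8 with probe NR1I2_12051 and in 7 of 8 with probe NR1I2_4673, and NR0B2 (SHP) was tested in 1 chemical, where it fell (-6.78). HNF4A and NR1H4 (FXR) fell in 6 of 8 each (-4.59 to 0.16 and -6.93 to -0.26).

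Among markers of the cell types a HepaRG culture can hold, those of hepatocytes fell, and the other lists differed from them. The hepatocyte marker features, all 13 of them detected, had a summed level between 51690 and 103912 CPM in the 21 C1 libraries outside trichostatin A and between 3725 and 33615 CPM in the 21 C5 libraries. In 88 of 104 tests they fell and in 0 they rose, beside the same background of 13.4% and 11.6%, which also applies to the lists that follow. Biliary markers (9 features) summed to 80.4 to 185 CPM at C1 and 82.8 to 229 CPM at C5, with 2 tests falling and 11 rising of 41. SPP1 and SOX9 rose in 5 of 8 chemicals each, while ITGB4 fell in 2 (-1.81 to -0.49 outside trichostatin A). KRT19 rose in 1 of 8 with probe KRT19_3690 and in 0 with KRT19_10816. KRT7 was tested in 1 chemical and not called (-1.98), and EPCAM had at most 3 counts in every library. Stromal markers (10 features) summed to 175 to 296 CPM at C1 and 104 to 227 CPM at C5, with 27 falling and 8 rising of 64. COL3A1 fell in 7 of 8 chemicals and COL1A1 rose in 6. Immune markers (3 features) summed to 24.7 to 122 CPM at C1 and 15.3 to 52.3 CPM at C5 outside trichostatin A, with 3 falling and 0 rising of 16. CD14 fell in 2 of 8 chemicals and CD68 in 1, and PTPRC was at 0 counts in all 118 libraries. The part of these changes in the transporter results was not tested.

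Mean depth was lower at C5 than at C1 in all 8 chemicals. The mean total counts were 1485592 at C5 and 3038905 at C1 with vorinostat, and 2325353 and 3646506 with scriptaid. CPM values and the tests take library size into account, but a low feature has fewer counts there, and the part of depth in the calls of SLC22A10 and SLC22A18 was not tested.

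Among features tested in all 8 chemicals, those of other genes whose mean log2 CPM over the 40 groups was most like a member were largely liver genes for the falling members. For SLC22A7_88372 they were the probes FABP1_2298 (Pearson r 0.97) and FABP1_11582 (0.96) of the liver fatty acid binding protein and ADH4_25100 (0.95), an alcohol dehydrogenase. For SLC22A7_90194 they were CYP7A1_89758 (0.95), the rate-limiting enzyme of bile acid synthesis, GPD1_24809 (0.95) and HAO2_89824 (0.95). For SLC22A9 they were SLCO1B1_14765 (0.98), another hepatic uptake carrier of organic anions, ACMSD_89639 (0.97) and ABCA6_28368 (0.97).

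For SLC22A3 they included RFTN1_18734 (0.98) and IQGAP2_17066 (0.98). For SLC22A5_6383 they were BCL6_20016 (0.89), IRS2_21012 (0.89) and SESN3_14278 (0.88), and for SLC22A5_20170 GPS2_19713 (0.91), ATP6V1B2_17790 (0.91) and ZMIZ2_7856 (0.90). The best match of SLC22A4 reached 0.59 (SRR_20787). These correlations were taken over 40 group means of the same libraries and 11277 features, and are a description without a test.

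Neighbours in the RefSeq gene order (GRCh38.p14) were mostly too low to test. On either side of SLC22A7, TTBK1 and CRIP3 had at most 7 and 15 counts in a library, and next to SLC22A3, SLC22A2 and LPA had at most 7 each. SLC22A25, SLC22A10 and SLC22A9 follow one another, with PLAAT5 (at most 5 counts) beyond SLC22A9. Of the pair SLC22A4 and SLC22A5, only the latter was called, and IRF1, on the other side of SLC22A5, rose in 3 of 8 chemicals at C5 (log2 changes -0.06 to 1.80).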

How the data were processed

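Lysates of HepaRG cells were profiled with TempO-Seq (whole transcriptome panel), giving 118 libraries. The authors deposited raw counts per detector probe, as whole numbers without normalisation. The submitters' processing notes name bcl2fastq 2.20.422, fastp 0.23.2, STAR 2.7.10b and DESeq2 1.38.0. The genome build and probe positions are not given in the sources used here, so no probe coordinates are printed. The linked paper is about a different experiment and served for style only. Of 22069 rows, 1 lacked values and was left out, and every sample column was used.

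A model per chemical was fitted with edgeR 4.0.16 in R 4.3.3 (filterByExpr, TMM scaling, quasi-likelihood F test). C2 to C5 were compared with C1, and a slope on log2 concentration (the trend) was turned into a fitted C5 against C1 difference. Adjustment was by Benjamini-Hochberg over all features tested. Each standard error is the size of the log2 change over the root of its F statistic. CPM used TMM over all libraries. Groups at 0 counts were bounded with 3 counts over the group. With 1 to 3 counts, an exact 95% counting interval is given, which, with no molecular identifiers, covers the error of counting reads and nothing else.

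The members and the gene lists were chosen with earlier results of these data known. All members are named with every probe. Up to 4 features per list were named by the largest mean absolute change at C5, neighbours by RefSeq order, and 3 features per member by Pearson correlation of group means. Other features named were chosen after their values were seen, and some features that these rules name are not reported here. RefSeq tables (GRCh38.p14) held 8 of the 9 members by symbol, and promoters of 6. Python 3.11.15 with pandas 2.3.3 made the tables, and the fitting steps were tested on simulated data.

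Samples are paired by replicate number, which in the labels stands for a HepaRG batch. As a check, each library was centred on its group mean, and the median correlation was 0.023 within batches (232 pairs) and -0.0109 between batches (464 pairs). HepaRG is a single established line, so its batches are not separate donors, and the labels do not say how they differ. The p-values therefore measure only the spread between these samples. Alternatives were other scalings, DESeq2 1.42.0, no filter, the batch as a block, leaving out each batch, summed probes and a single model of all chemicals.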

Additional observations from a re-analysis of the deposited data

How the results depend on the processing

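At C5, 37 member tests fell and 6 rose over the 8 chemicals, and the alternatives gave 30 to 39 falling and 4 to 9 rising. For none of the alternatives is the share of all features called given here. Their counts, also those of trichostatin A below, therefore stand without a background. The batch as a replicate block gave 38 falling and 7 rising, and 33 and 7 by trend, equal to the main trend counts. Leaving out a batch gave 34 to 35 falling and 5 to 6 rising at C5, and 30 to 32 and 6 to 7 by trend. Summing the probes of a gene, which leaves fewer features to count, gave 4 rising by trend in place of 7. With trichostatin A, 2 features were called without the filter (SLC22A7_90194 at -1.32, adjusted p 0.0491, and SLC22A9 at 0.87, adjusted p 0.0381) and the counts without each batch were 0 to 1, in place of 0. The fit without the filter kept the C1 library of batch 3, in which SLC22A9 was at 3.88 CPM. The cause was not tested. Of 724 single values under an alternative, 703 kept their side of the threshold, 7 lost the call and 14 gained it. No called value reversed, and 20 of the values uncalled in both fits, in 13 comparisons, changed sign. Scaling by total counts shifted the median of all features by -0.03 to 0.19 on the log2 scale, over 0.1 in mocetinostat, panobinostat, scriptaid, tacedinaline and valproic acid, and under it SLC22A5_20170 was called with mocetinostat (0.84, adjusted p 0.027) and both SLC22A5 probes with valproic acid. The block also called SLC22A5_20170 with valproic acid (0.63, adjusted p 0.0412). The low counts of SLC22A15 and SLC22A25 limit what could be seen in them.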
